A study of Oryza sativa with 15 samples.

Results

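Severe drought was set directly against 30 min of heat in rice shoots, long growth in soil held at low water against a short rise in temperature. The comparison used 6 of the 15 libraries of the study, chosen by their labels alone, with 3 libraries in each group. The severe drought group was grown for 10 days in soil held at 1.25 g water per g soil by daily rewatering, in a chamber at 30 °C in the light and 27 °C in the dark, and was never heated. The 30 min heat group was grown in the same chamber in soil at 3 g per g and was moved to 40 °C for 30 min on the last day. Both groups were the japonica cultivar Nipponbare, germinated for 3 days, planted 7 to a pot, kept at 90% humidity with 12 h of light, and harvested as whole shoots 6 h after dawn. Soil water, temperature and the length of the treatment therefore all differed between the groups, and a difference between them cannot be assigned to either treatment alone. A wet control at 3 g per g without heat, also with 3 libraries, is given last beside a gene to show where each group stood. Whether libraries of 1 group stem from different pots is not stated. The p-values therefore measure how far these libraries spread, which may be technical.

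Heat unfolds proteins, and plant cells answer within minutes: class A heat shock factors bind heat shock elements and switch on small heat shock proteins, HSP70, HSP90 and the ClpB disaggregase HSP101. Unfolded protein in the endoplasmic reticulum (ER) sets off a second programme, in which the sensor IRE1 and membrane-bound bZIP factors raise ER chaperones. Drying soil acts over days through abscisic acid (ABA), which is perceived by PYR/PYL receptors that inhibit clade A PP2C phosphatases and so release SnRK2 kinases (SAPK in rice). Genes that respond to this pathway include those of LEA proteins and of the PP2C phosphatases themselves. Rice takes up iron both as free ions and bound to phytosiderophores made from nicotianamine, and its iron uptake genes respond to the iron supply.

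Total counts were 52596199 to 60320309 in the severe drought libraries and 67857233 to 77969214 in the 30 min heat libraries. Levels below are counts per 1000000 counts scaled by trimmed-mean factors (CPM), a value after ± is the standard error of a log2 fold change, and n = 3 per group throughout. The scaling factors were 1.036 to 1.149 in severe drought and 0.622 to 0.706 after heat. On that scale, 3 counts in 1 library correspond to 0.0433 to 0.0551 CPM in severe drought and 0.06 to 0.0698 CPM after heat. Leaf genes were abundant in both groups: the light-harvesting gene CAB1R had 15400, 13300 and 16100 CPM in severe drought, against 13000, 16000 and 15900 CPM after 30 min heat. The 5 photosynthesis genes with a checked name held 7.63% to 9.13% of all counts in severe drought and 4% to 4.73% after heat. Of the markers of other organs, the root silicon effluxer LSI2 and the meristem gene OSH1 had 0 counts in both groups, the seed glutelin gene GLUA2 had 2.41, 3.09 and 2.98 CPM in severe drought, against 2.34, 1.63 and 2.16 CPM after 30 min heat, and the silicon channel LSI1 had 22.5, 15.3 and 29.4 CPM in severe drought, against 18.9, 26.3 and 25.9 CPM after 30 min heat. The meristem receptor kinase gene FON1 had 26.5, 14.8 and 28.7 CPM in severe drought, against 6.66, 9.45 and 11.5 CPM after 30 min heat. FON1 had a log2 fold change of 1.34 (adjusted p = 0.0013), and its part in other results was not tested. In these bulk samples, fewer cells of a type and less RNA per cell cannot be told apart. Severe drought replicate 2 and 30 min heat replicate 1 deviated from their group means in the same way over all genes (r = 0.44, across genes, which are not independent replicates), and values without both are given for the 3 list members whose call held without any 1 library but was lost without this pair.

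The largest differences lay on the heat side. Of 20462 genes tested, 4075 were higher and 4206 were lower in severe drought than after 30 min heat at an adjusted p under 0.05 (edgeR's quasi-likelihood test with Benjamini-Hochberg adjustment), so 40.5% of genes passed, 19.9% higher and 20.6% lower. The 6 libraries did not overlap between the groups for 52.4% of genes tested. The 2 directions were even in number and in their medians, which were 1.24 and -1.24 on the log2 scale among the genes that passed, but not in their extremes. Differences of at least 5 on the log2 scale were found for 58 genes higher and 274 genes lower in severe drought, and of at least 10 for 1 gene higher and 49 lower. The largest positive value was 11.10, but 6.85 among called genes that reached a mean of 5 CPM in either group without overlap. The largest negative value was -19.90 with or without these limits. These 274 genes, chosen by this same contrast, held 0.263% to 0.297% of all counts in severe drought, 26% to 28.9% after heat and 0.924% to 1.08% in the wet control. Against a 2-fold change rather than no change, 1107 genes were higher and 1520 lower. The split depended on the scaling: with library totals alone the median of all genes moved by 0.73, to 0.75, and 10115 genes were higher and 1806 lower. Every fold change below is on the scale on which the median gene stood at 0.02. A gene is said to fall or rise where it was lower or higher in severe drought than after 30 min heat, unless the wet control is named. By itself this does not place severe drought against the wet control. For orientation, 2.69% of genes passed between severe drought and the wet control and 38.9% between 30 min heat and the wet control. These 2 comparisons share the wet control with each other and their treated libraries with the direct one, so for each gene their values are only set side by side.

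**Figure D1:**
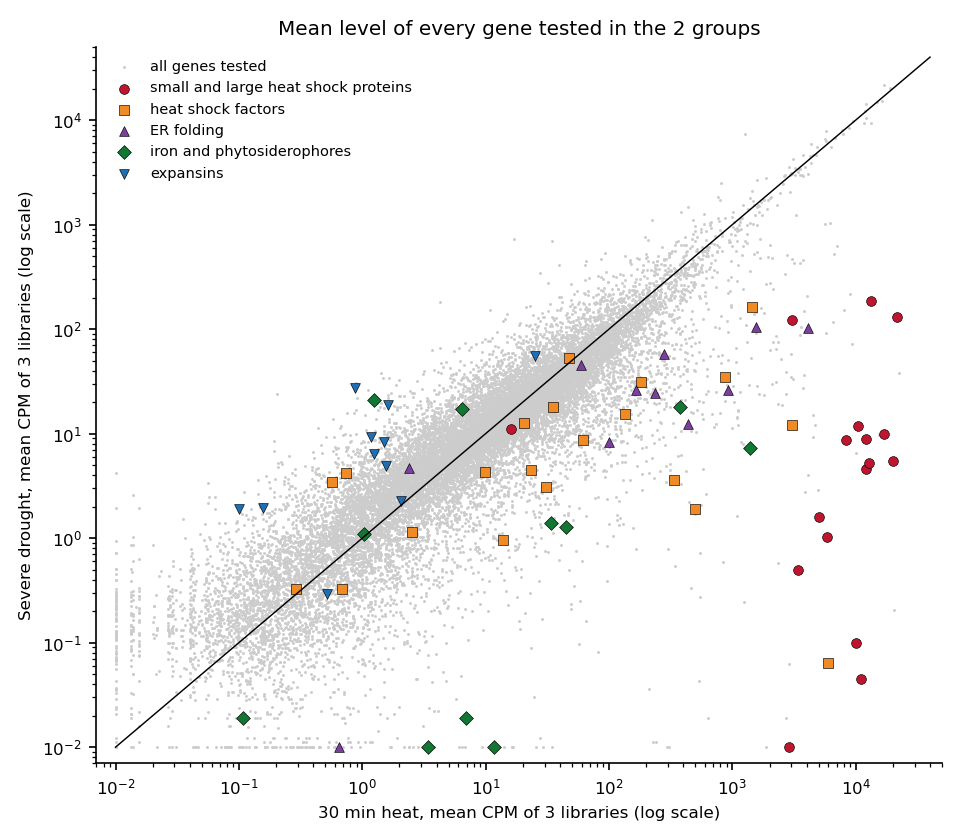
Mean level of each of the 20462 genes tested in severe drought (vertical axis, CPM, log scale) against 30 min heat (horizontal axis, CPM, log scale), each a mean of 3 libraries; values under 0.01 CPM are drawn at 0.01, and the line marks equal levels. All heat shock protein genes drawn except HSP22.3 lie far to the right of the line, the 7 iron genes that fell lie below it, and most expansins lie above it.

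The 8 largest falls and the 8 largest rises, among called genes that reached a mean of 5 CPM in either group and whose libraries did not overlap, come from this same contrast and are given as a description. The gene with the largest fall carries no name in the annotation used. LOC_Os07g47840 had 0, 0 and 0 CPM in severe drought, against 1910, 2130 and 1610 CPM after 30 min heat, with 0 counts in all 3 severe drought libraries, so it was at least 116000-fold lower there, against a floor of 3 counts over the group. It had 0, 0 and 0.175 CPM in the wet control. The same list holds the small heat shock protein genes HSP26.7, HSP21.9 and HSP23.2, the factor HSFA2A and 3 further unnamed loci. LOC_Os04g01740 had 0.367, 0.115 and 0.135 CPM in severe drought, against 19700, 20200 and 21100 CPM after 30 min heat. LOC_Os04g01740 had a log2 fold change of -16.62 that was -17.29 without severe drought replicate 1. LOC_Os11g05170 had 0, 0.0577 and 0 CPM in severe drought, against 2740, 2970 and 2400 CPM after 30 min heat. LOC_Os02g48140 had 0, 0.0865 and 0.101 CPM in severe drought, against 2920, 3180 and 2540 CPM after 30 min heat. Their log2 fold changes were -16.81 and -15.40. Without severe drought replicate 2, which leaves 0 counts in severe drought, LOC_Os11g05170 was at least 103000-fold lower. In each of these loci the heat libraries stood close together at a high level, and the severe drought libraries held almost no reads. The most abundant transcript after heat, LOC_Os01g62290, had 29.6, 47 and 36.6 CPM in severe drought, against 21700, 22900 and 22800 CPM after 30 min heat, a log2 fold change of -9.22 ± 0.31.

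The 8 largest rises were smaller, between 4.75 and 6.85 on the log2 scale, and 6 of the 8 loci are unnamed. LOC_Os04g08828 had 32.9, 24.1 and 14.5 CPM in severe drought, 0.12, 0.351 and 0.14 CPM after 30 min heat and 11, 8.75 and 4.71 CPM in the wet control. Its severe drought libraries all stood above the wet ones and its heat libraries far below them, and its log2 fold change was 7.53 without 30 min heat replicate 2. LOC_Os04g55710 was the most abundant of the 8, with 572, 880 and 741 CPM in severe drought, 16.1, 19.3 and 15.9 CPM after 30 min heat and 394, 276 and 196 CPM in the wet control. LOC_Os03g41330 had 32.5, 27 and 32.5 CPM in severe drought, 0.72, 0.949 and 1 CPM after 30 min heat and 8.29, 10.5 and 11.4 CPM in the wet control. In both, severe drought was above the wet control (log2 fold changes of 1.34, adjusted p = 0.041 and 1.61, adjusted p = 0.0035) and heat was below it (-4.08, adjusted p = 1.0e-06 and -3.50, adjusted p = 2.0e-07). LOC_Os09g29460, by contrast, had 34.2, 44.5 and 36.1 CPM in severe drought, 1.4, 1.55 and 1.3 CPM after 30 min heat and 29, 23.6 and 22.6 CPM in the wet control, where only the heat libraries stood apart from the wet ones beyond the threshold. The log2 fold change of LOC_Os07g02120 was 5.43 (6.08 without 30 min heat replicate 2) and that of LOC_Os04g11970 was 5.12. The 2 named genes, NIA1 and EXPA2, are described with nitrogen assimilation and expansins.

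Of 25 gene lists chosen for the tissue and the treatments, 239 members had a checked name and a row in the table, and 226 of them passed the filter on low counts. Past the threshold, 36 of these were higher and 94 lower in severe drought, or 57.5% of members against 40.5% of all genes. The lists were chosen with results of these data known, so this share describes the lists and is no evidence of its own. The medians of the chaperone, heat shock factor, ER and iron lists lay far below the 0.02 of all genes, and that of the expansins above it.

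**Figure D2:**
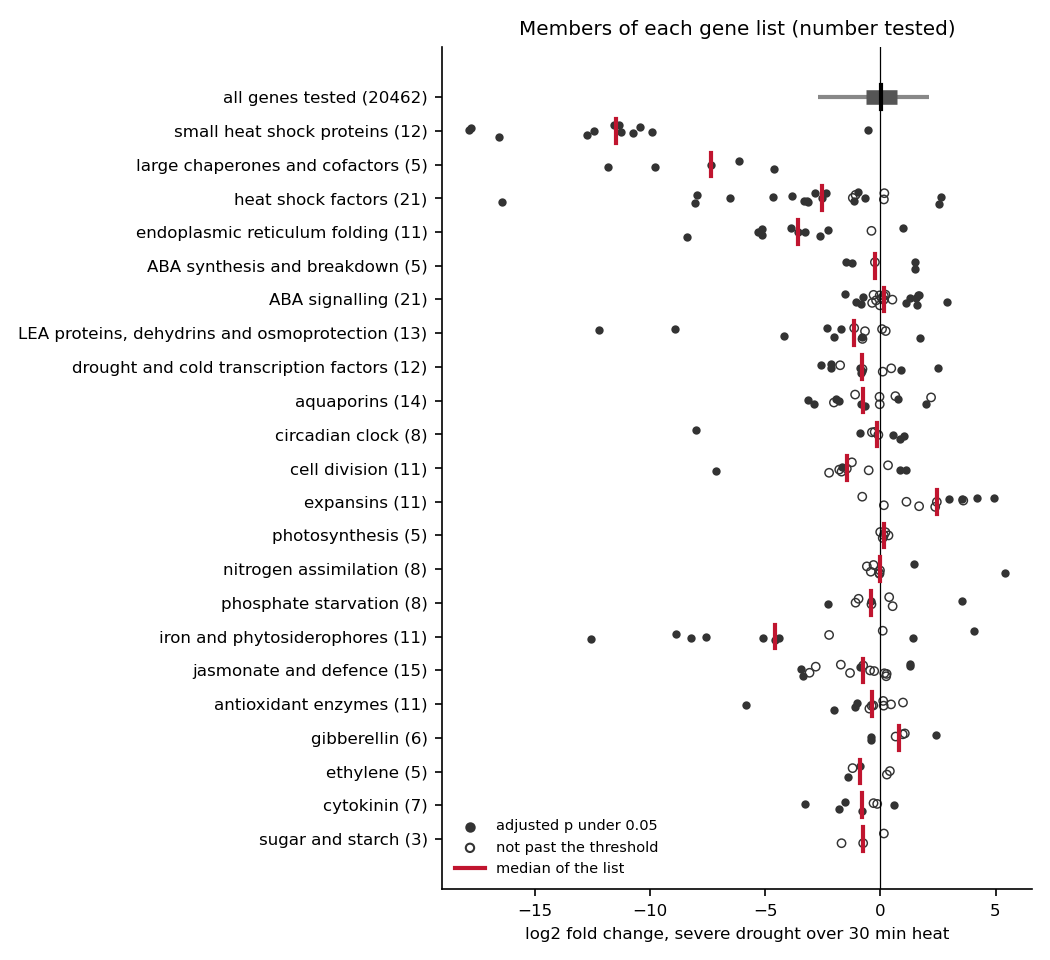
log2 fold change, severe drought over 30 min heat, of every tested member of the lists with at least 3 tested members (1 point per gene; filled, adjusted p under 0.05; open, not past it), with the median of each list as a red bar. The top row gives all genes tested: the thin bar spans the 5th to 95th percentile (-2.70 to 2.11), the thick bar the 25th to 75th (-0.61 to 0.71). The medians of the small heat shock proteins (-11.47), large chaperones (-7.36), iron (-4.58), ER folding (-3.56) and heat shock factors (-2.53) lie to the left, that of the expansins (2.45) to the right.

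All 12 tested small heat shock protein genes, which encode chaperones that hold unfolding proteins without ATP, fell, where 20.6% of all genes did. Their median log2 fold change was -11.47 against 0.02 for all genes. Of the list, 13 genes were in the table, and HSP19.0 was too low to test. Together they held 0.00434% to 0.00639% of the counts in severe drought, 6.15% to 6.88% after heat and 0.00347% to 0.0103% in the wet control. HSP26.7 (LOC_Os03g14180), the chloroplast member, had 0.0734, 0.0288 and 0.0337 CPM in severe drought, against 10500, 11800 and 10700 CPM after 30 min heat. HSP23.2 (LOC_Os04g36750) had 0.0918, 0.159 and 0.0505 CPM in severe drought, against 9240, 11300 and 9580 CPM after 30 min heat. For both, every heat library was far above every severe drought library, and the log2 fold changes were -17.87 ± 1.66 (adjusted p = 2.3e-06) and -16.55 ± 1.39 (adjusted p = 8.9e-07). HSP21.9 (LOC_Os11g13980) had 2 counts in severe drought and 406042 after heat, a ratio, heat over severe drought, of 263000 with an exact 95% counting interval of 72800 to 2171303. Both counts lay in severe drought replicate 2, and without it the gene was at least 109000-fold lower. The fitted values of the cytosolic genes HSP16.9A, HSP16.9B, HSP16.9C, HSP17.7, HSP17.9A and HSP18.0 and of HSP18.6 and HSP24.1 lay between -12.74 and -9.92. Some of these are close copies, and how the authors' counting split shared reads is not known.

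HSP22.3, picked out after its values were seen, was the exception among the small heat shock proteins. It had 10.8, 8.51 and 13.7 CPM in severe drought, 15.1, 16.6 and 16.5 CPM after 30 min heat and 4.96, 5.63 and 5.67 CPM in the wet control, so it was above the wet control in both groups and the 2 treated groups lay close together without overlap. Its log2 fold change between them was -0.55 ± 0.17 (adjusted p = 0.022), and the call was lost without severe drought replicate 1 or 2 or 30 min heat replicate 2 or 3, with values between -0.74 and -0.36. It was the only small heat shock protein gene of the list past the threshold between severe drought and the wet control (1.02, adjusted p = 0.0087), while all 12 passed between heat and the wet control. Wet control replicate 3 held more reads of the other genes than replicates 1 and 2, for example 0.112, 0.111 and 3.07 CPM of HSP26.7 in replicates 1, 2 and 3. Among the 5 tested large chaperones, all fell, where 20.6% of all genes did. Their median was -7.36, and they held 0.0445% to 0.0587% of counts in severe drought against 4.26% to 4.78% after heat. The list had 19 loci, and those without a checked name or a row in the table were left out. All its HSP70 loci were among these, LOC_Os01g62290 (listed as HSP70-3) included, as was LOC_Os04g01740, listed as HSP82. These shares of counts therefore do not cover them.

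HSP101 (LOC_Os05g44340), the cytosolic disaggregase that pulls proteins out of heat-formed aggregates, had 4.06, 8.15 and 4.24 CPM in severe drought, against 19900, 20100 and 19700 CPM after 30 min heat. HSP101 had a log2 fold change of -11.82 ± 0.59 (adjusted p = 4.4e-09). CLPB3 (LOC_Os02g08490), an organellar relative, had 14.2, 11.7 and 9.59 CPM in severe drought, against 10500, 10200 and 10600 CPM after 30 min heat. CLPB3 had a log2 fold change of -9.78 ± 0.25 (adjusted p = 3.5e-11). HSP81-1 (LOC_Os08g39140), an HSP90 gene, had 123, 135 and 134 CPM in severe drought, against 20500, 22000 and 21900 CPM after 30 min heat. HSP81-1 had a log2 fold change of -7.36 ± 0.20 (adjusted p = 3.5e-11). The heat libraries of each gene stood close to each other and did not overlap with severe drought. CLPB2 and HSP81-2 followed with -6.15 and -4.64. Against the wet control, severe drought gave 1.06 (adjusted p = 0.16) for HSP101, -0.17 (adjusted p = 0.63) for CLPB3 and -0.54 (adjusted p = 0.077) for HSP81-1, none past the threshold.

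Heat shock factors are the transcription factors that switch these chaperones on, or in class B damp the response. Of 21 tested, 15 were lower and 2 higher in severe drought, where 20.6% of all genes were lower and 19.9% higher. The median was -2.53. HSFA2A (LOC_Os03g53340), a heat-induced activator, had 0.0367, 0.0865 and 0.0673 CPM in severe drought, against 5260, 6480 and 6040 CPM after 30 min heat, with heat libraries at a high level and severe drought libraries of a few reads; its log2 fold change was -16.43 ± 1.44 (adjusted p = 1.4e-06). HSFB2B (LOC_Os08g43334), of class B, had 1.69, 2.02 and 1.97 CPM in severe drought, against 449, 516 and 531 CPM after 30 min heat. HSFB2B had a log2 fold change of -8.04 ± 0.31 (adjusted p = 4.4e-10). HSFA2C (LOC_Os10g28340) had 10.2, 14.1 and 12.1 CPM in severe drought, against 3200, 3110 and 2920 CPM after 30 min heat. HSFA2C had a log2 fold change of -7.98 ± 0.26 (adjusted p = 1.1e-10). The 3 heat libraries of each gene were close to each other and above all severe drought libraries. The other 12 that fell ranged from -6.54 for HSFB2A to -0.68 for HSFA5, and the call of HSFA6B was lost without severe drought replicate 1 or 3 or 30 min heat replicate 2 (values between -1.33 and -1.0).

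The 2 factors that were higher in severe drought than after heat, HSFC2A and HSFC1A, belong to class C. The genes in this paragraph were picked out after their values were seen. HSFC2A had 2.77, 6.75 and 3.15 CPM in severe drought, 0.48, 0.743 and 0.977 CPM after 30 min heat and 1.01, 1.74 and 0.835 CPM in the wet control. HSFC1A had 3.31, 3.82 and 3.32 CPM in severe drought, 0.36, 0.825 and 0.512 CPM after 30 min heat and 2.28, 3.52 and 1.79 CPM in the wet control. All severe drought libraries of both genes were above all heat libraries, and the log2 fold changes were 2.53 ± 0.40 (adjusted p = 0.00025) and 2.62 ± 0.33 (adjusted p = 4.0e-05). Against the wet control, HSFC2A gave 1.82 (adjusted p = 0.027) in severe drought and -0.71 (adjusted p = 0.17) after heat. HSFC1A gave 0.46 (adjusted p = 0.44) in severe drought and -2.16 (adjusted p = 0.0002) after heat. HSFC2B had 1.49, 6.19 and 5.25 CPM in severe drought, 16.2, 6.29 and 7.17 CPM after 30 min heat and 0.51, 0.125 and 0.323 CPM in the wet control, above the wet control in both groups (3.74, adjusted p = 0.0064 in severe drought and 4.94, adjusted p = 5.1e-05 after heat), and its direct difference of -1.20 ± 0.54 (adjusted p = 0.097) did not pass. HSFA1, whose Arabidopsis counterparts are the master regulators that start the response, had 61.7, 50.5 and 47.6 CPM in severe drought, against 40.5, 51.8 and 51.2 CPM after 30 min heat, overlapping groups and a difference of 0.15 with a 95% interval of -0.15 to 0.46.

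**Figure D3:**
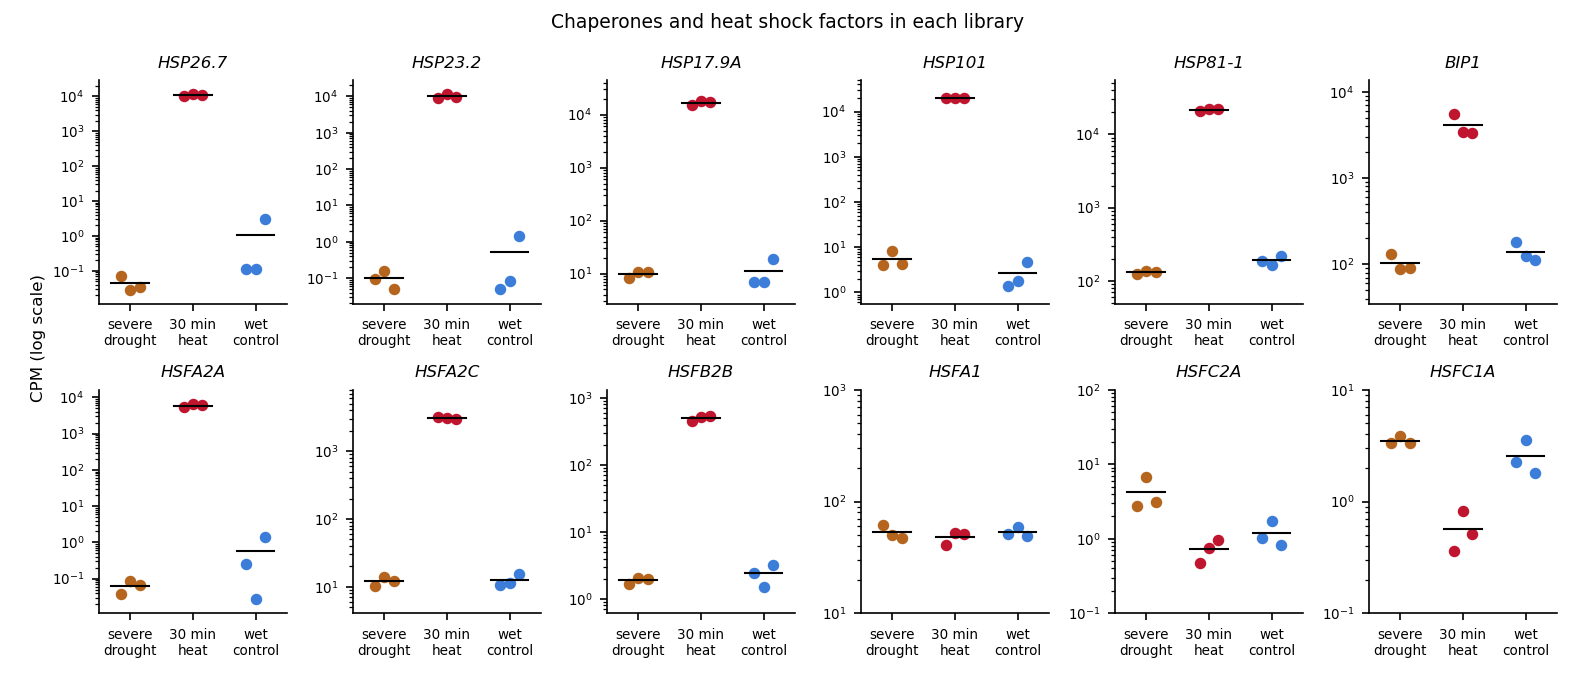
Level of 12 chaperone and heat shock factor genes in each library (points, CPM on a log scale that differs between panels) for severe drought, 30 min heat and the wet control, with the mean of 3 libraries as a bar. In 9 of the panels the heat libraries stand far above the other groups. HSFA1 is level across groups, and HSFC1A is lowest after heat. HSFC2A is highest in severe drought, with overlapping heat and wet libraries.

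Of 11 tested ER folding genes 9 fell and 1 rose, where 20.6% of all genes fell and 19.9% rose. The median was -3.56. BIP1 (LOC_Os02g02410), the HSP70 of the ER lumen, had 131, 87.8 and 89.7 CPM in severe drought, against 5480, 3390 and 3340 CPM after 30 min heat. BIP1 had a log2 fold change of -5.31 ± 0.38 (adjusted p = 1.5e-07). PDIL2-3 (LOC_Os09g27830), a protein disulfide isomerase, had 27.9, 23.9 and 26.3 CPM in severe drought, against 1150, 834 and 779 CPM after 30 min heat. PDIL2-3 had a log2 fold change of -5.14 ± 0.24 (adjusted p = 3.1e-09). For both, heat replicate 1 was the highest library, and no severe drought library came near the heat ones. BZIP60 (LOC_Os07g44950), a transcription factor of the unfolded protein response, had 12.1, 13.2 and 11.6 CPM in severe drought, against 483, 405 and 416 CPM after 30 min heat. BZIP60 had a log2 fold change of -5.14 ± 0.17 (adjusted p = 1.6e-10). The sensor IRE1 and the factors BZIP50 and BZIP39 fell by 2.64, 3.56 and 3.29 on the log2 scale, the calreticulin gene CRT1 by 3.90 and PDIL1-1 by 2.27. BIP4, at 0 counts in severe drought against 96 after heat, was at least 41.4-fold lower. Its reads came mostly from heat replicate 1 (1.64, 0.124 and 0.186 CPM in the 3 heat libraries); the call was lost without that library or without any 1 of the severe drought libraries. PDIL1-4 was the 1 that was higher, by 0.96 (adjusted p = 0.014), a call lost without 30 min heat replicate 2. Between severe drought and the wet control 0 of the 11 passed, where 2.69% of all genes did.

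ABA genes did not divide by treatment as a block. NCED3, for the rate-limiting cleavage step of ABA synthesis, is outside the naming rule because of its low level: it had 2.41, 5.08 and 2.73 CPM in severe drought, 1.04, 1.36 and 1.19 CPM after 30 min heat and 0.274, 0.816 and 0.848 CPM in the wet control. All severe drought libraries were above all heat libraries, the log2 fold change was 1.51 ± 0.45 (adjusted p = 0.017), and the call was lost without severe drought replicate 2 or 30 min heat replicate 1 (values between 1.13 and 1.71). ABA1 (LOC_Os04g37619), for zeaxanthin epoxidase, had 658, 460 and 410 CPM in severe drought, against 965, 1270 and 1320 CPM after 30 min heat. ABA1 had a log2 fold change of -1.22 ± 0.33 (adjusted p = 0.0097). The ABA 8'-hydroxylase genes, which break ABA down, went opposite ways. ABA8OX2 (LOC_Os08g36860) had 15, 13.6 and 13.8 CPM in severe drought, against 3.72, 6 and 5.19 CPM after 30 min heat. ABA8OX2 had a log2 fold change of 1.51 ± 0.25 (adjusted p = 0.00031). ABA8OX3 (LOC_Os09g28390) had 24.5, 12.7 and 18.6 CPM in severe drought, against 42.1, 57 and 57 CPM after 30 min heat. ABA8OX3 had a log2 fold change of -1.49 ± 0.32 (adjusted p = 0.0024). Neither overlapped between the groups. In all, 2 of the 5 tested genes rose and 2 fell, with a median of -0.24, where 40.5% of all genes passed. With library totals 2 were higher and 1 lower, with a median of 0.51.

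Among 21 tested ABA signalling genes, 7 were higher and 4 lower, where 19.9% of all genes were higher and 20.6% lower. Their median was 0.14 against 0.02 for all genes. Of the 7 higher genes, 6 were clade A PP2C phosphatases, the brakes of ABA signalling that ABA itself induces. PP2C09 (LOC_Os01g62760) had 82.7, 139 and 97.5 CPM in severe drought, 35.5, 34.9 and 29.6 CPM after 30 min heat and 25.6, 27.7 and 24 CPM in the wet control. PP2C30 (LOC_Os03g16170) had 7.29, 18.2 and 10.5 CPM in severe drought, 4.3, 4.08 and 3.28 CPM after 30 min heat and 1.72, 1.44 and 0.538 CPM in the wet control. PP2C08 (LOC_Os01g46760) had 11, 17.2 and 12 CPM in severe drought, 5.26, 4.31 and 3.68 CPM after 30 min heat and 2.21, 3.9 and 2.09 CPM in the wet control. Severe drought replicate 2 was the highest library of each, all severe drought libraries were above all heat ones, and the log2 fold changes were 1.68 ± 0.20 (adjusted p = 1.8e-05), 1.62 ± 0.37 (adjusted p = 0.0037) and 1.60 ± 0.29 (adjusted p = 0.00066). Against the wet control the same genes gave 2.05, 3.28 and 2.29 in severe drought, all past the threshold, and 0.37 (adjusted p = 0.15), 1.66 (adjusted p = 0.0039) and 0.69 (adjusted p = 0.072) after heat. PP2C68 followed with 1.53 (adjusted p = 0.0091), and gave 1.07 (adjusted p = 0.11) without severe drought replicate 2 and 30 min heat replicate 1. PP2C06 (1.13, adjusted p = 0.011) lost its call without severe drought replicate 2, and PP2C51 (2.90, adjusted p = 0.046), at under 1 CPM in every library, lost it without severe drought replicate 2 or 3 or 30 min heat replicate 2 or 3 and gave 4.51 without 30 min heat replicate 1.

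Not every PP2C gene separated the treatments. PP2C49, chosen after its values were seen, had 4.68, 23.8 and 11.1 CPM in severe drought, 19, 16.4 and 13.5 CPM after 30 min heat and 2.66, 2.23 and 2.37 CPM in the wet control; it was above the wet control in both groups (2.45, adjusted p = 0.018 in severe drought and 2.75, adjusted p = 0.00064 after heat), the groups overlapped, and the direct difference was -0.30 ± 0.46 (adjusted p = 0.63). PP2C50 and PP2C53 differed by 0.14 (adjusted p = 0.64) and -0.02 (adjusted p = 0.92). Of the SAPK kinases, SAPK8 (LOC_Os03g55600) had 38.1, 39 and 37.3 CPM in severe drought, against 66.3, 72.4 and 65.7 CPM after 30 min heat. SAPK8 had a log2 fold change of -0.84 ± 0.09 (adjusted p = 8.1e-06). SAPK3 (LOC_Os10g41490) had 10.6, 17.6 and 14.4 CPM in severe drought, against 33.1, 28.4 and 26.3 CPM after 30 min heat. SAPK3 had a log2 fold change of -1.05 ± 0.22 (adjusted p = 0.0022). SAPK5 had 47.4, 50 and 47.1 CPM in severe drought, against 15.8, 21.8 and 20.9 CPM after 30 min heat. SAPK5 had a log2 fold change of 1.30 ± 0.15 (adjusted p = 1.5e-05). The libraries of the 2 groups did not overlap for any of the 3. SAPK7 (-1.56, adjusted p = 0.036) and SAPK1 (-0.75, adjusted p = 0.025) passed with calls that did not hold when 1 library was left out. The value of SAPK7 was -1.13 without severe drought replicate 1 (adjusted p = 0.088), -1.69 without severe drought replicate 3 (adjusted p = 0.067), -1.59 without 30 min heat replicate 1 (adjusted p = 0.062), -1.41 without 30 min heat replicate 2 (adjusted p = 0.094) and -1.62 without 30 min heat replicate 3 (adjusted p = 0.06). The call of SAPK1 was lost without severe drought replicate 1 or 3 or 30 min heat replicate 2 or 3 (values between -0.90 and -0.59). With library totals 15 of the 21 genes were higher and 0 lower.

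LEA proteins and dehydrins, which protect cells as water is lost and are classic targets of ABA, were put in a list with SALT and with proline and trehalose enzymes. Of the 13 tested genes of the list 7 fell and 1 rose, with a median of -1.14, where 20.6% of all genes were lower and 19.9% higher. With library totals 5 were lower and 2 higher, with a median of -0.38. The LEA and dehydrin genes that fell were EMP1, LEA3-2, RAB16D and LIP9. EMP1 (LOC_Os05g28210), a group 1 LEA gene, had 0, 0 and 0 CPM in severe drought, 0.56, 6.13 and 21.3 CPM after 30 min heat and 2.9, 18.4 and 7.66 CPM in the wet control. With no read in severe drought, it was at least 536-fold lower than after heat and at least 574-fold lower than in the wet control. The 3 heat libraries spread widely and heat replicate 3 held most of the group's counts; without it the gene was at least 202-fold lower than after heat. LEA3-2 (LOC_Os03g20680) had 0.845, 1.64 and 1.3 CPM in severe drought, 4.26, 28 and 38.2 CPM after 30 min heat and 30.4, 92.3 and 71.6 CPM in the wet control. LEA3-2 had a log2 fold change of -4.21 ± 0.96 (adjusted p = 0.0035). For these 2 genes the wet control was as high as heat or higher, and severe drought was the group that stood apart (-5.67, adjusted p = 0.011 for LEA3-2 against the wet control).

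The dehydrins RAB16D and LIP9 showed the other pattern. RAB16D (LOC_Os11g26750) had 0, 0.0288 and 0 CPM in severe drought, 4.44, 7.24 and 6.56 CPM after 30 min heat and 0.124, 0.111 and 0.0538 CPM in the wet control, with 2 counts in severe drought and 855 after heat, a ratio of heat over severe drought of 554 with an exact 95% counting interval of 153 to 4580. Both counts lay in severe drought replicate 2, and without it the gene was at least 229-fold lower. LIP9 had 15.1, 29.5 and 21.1 CPM in severe drought, 106, 115 and 111 CPM after 30 min heat and 15.4, 21.7 and 16.4 CPM in the wet control. LIP9 had a log2 fold change of -2.34 ± 0.24 (adjusted p = 5.7e-06). RAB16D had 22 counts in the wet control, a ratio of the wet control over severe drought of 8.88 with an exact 95% counting interval of 2.18 to 77.9. The severe drought libraries of LIP9 overlapped with the wet ones. In both genes the 30 min heat libraries stood above those of severe drought and the wet control, by 5.95 (adjusted p = 1.4e-05) and 2.64 (adjusted p = 2.2e-06) against the wet control. The dehydrin gene RAB21, a common drought marker, was below 1 CPM in every library of both groups. The proline synthesis gene P5CS1 had 41.2, 45.6 and 35.1 CPM in severe drought, against 66.3, 73.6 and 69.4 CPM after 30 min heat. P5CS1 had a log2 fold change of -0.78 ± 0.14 (adjusted p = 0.00082). SALT fell by 2.02 on the log2 scale (adjusted p = 0.012), and was -2.68 without severe drought replicate 2. The trehalose phosphatase gene TPP1 rose by 1.74 (adjusted p = 0.016), at under 1 CPM, a call lost without severe drought replicate 2 or 30 min heat replicate 2 or 3 and equal to 2.42 without 30 min heat replicate 1, while TPP2 fell (-1.72, adjusted p = 0.00077).

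Transcription factors known from drought and cold were split, with 6 of 12 tested lower, 2 higher and a median of -0.82. Over all genes, 20.6% were lower and 19.9% higher. Without 30 min heat replicate 3 there were 3 lower, and with library totals 1 was lower and 3 higher. HOX6 (LOC_Os09g35910), an HD-Zip I factor, had 12.9, 21.5 and 17.7 CPM in severe drought, 2.72, 3.22 and 3.12 CPM after 30 min heat and 12.3, 15.7 and 16 CPM in the wet control. HOX6 had a log2 fold change of 2.52 ± 0.24 (adjusted p = 2.7e-06). The heat libraries were the ones that stood apart. Its relative HOX22, chosen after its values were seen, had 62.3, 79.5 and 53.5 CPM in severe drought, 57, 64.4 and 60.2 CPM after 30 min heat and 19.9, 29 and 24.6 CPM in the wet control, so the treated groups overlapped, both were above the wet control (1.41, adjusted p = 0.002 and 1.31, adjusted p = 7.4e-05), and the direct difference was 0.10 ± 0.17 (adjusted p = 0.67). DREB2A (LOC_Os01g07120) had 3.29, 4.9 and 4.58 CPM in severe drought, against 6.92, 7.12 and 8.4 CPM after 30 min heat and DREB2B (LOC_Os05g27930) had 45.4, 35.7 and 35.9 CPM in severe drought, against 69.8, 69.9 and 77.3 CPM after 30 min heat. These factors bind the dehydration response element, and both were lower in severe drought without overlap, by log2 fold changes of -0.81 ± 0.19 (adjusted p = 0.0047) and -0.89 ± 0.19 (adjusted p = 0.0026). DREB1A, of the cold-responsive branch, was lower than after heat by 2.13. Against the wet control, 1 of the 12 factors was higher and 0 lower in severe drought, where 1.64% and 1.05% of all genes were. After heat 6 were higher and 2 lower than in the wet control, where 19.3% and 19.6% of all genes were. NAC6 had 145, 114 and 117 CPM in severe drought, against 41.1, 67.5 and 94.4 CPM after 30 min heat. NAC6 had a log2 fold change of 0.89 (adjusted p = 0.026) that was 0.77 without severe drought replicate 1 (adjusted p = 0.081), 0.66 without 30 min heat replicate 1 (adjusted p = 0.083) and 0.92 without 30 min heat replicate 2 (adjusted p = 0.063). MYB4 had 0.679, 1.93 and 1.08 CPM in severe drought, against 4.36, 3.96 and 7.86 CPM after 30 min heat. MYB4 had a log2 fold change of -2.13 (adjusted p = 0.014) that was -1.84 without severe drought replicate 1 (adjusted p = 0.056), -2.04 without severe drought replicate 3 (adjusted p = 0.052) and -1.73 without 30 min heat replicate 3 (adjusted p = 0.058). NAC5 and DREB1C passed (-0.83 and -2.59) and each lost its call without at least 3 of the 6 libraries taken 1 at a time.

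Water channels did not move as a block. Of 14 tested aquaporin genes, 6 were lower and 2 higher in severe drought, with a median of -0.75. Over all genes, 20.6% were lower and 19.9% higher. With library totals 4 were lower and 5 higher, with a median of -0.01. TIP1-1 (LOC_Os03g05290), a channel of the vacuole membrane, had 327, 516 and 441 CPM in severe drought, against 2550, 3440 and 3410 CPM after 30 min heat. TIP1-1 had a log2 fold change of -2.87 ± 0.32 (adjusted p = 1.1e-05). PIP2-1 (LOC_Os07g26690) of the plasma membrane had 241, 334 and 298 CPM in severe drought, against 1010, 1190 and 1080 CPM after 30 min heat. PIP2-1 had a log2 fold change of -1.91 ± 0.20 (adjusted p = 8.0e-06). PIP2-4 (LOC_Os07g26630) had 1.1, 0.577 and 0.555 CPM in severe drought, against 5.68, 5.12 and 8.82 CPM after 30 min heat. PIP2-4 had a log2 fold change of -3.14 ± 0.56 (adjusted p = 0.00061). None of the 3 overlapped between the groups. In the other direction, PIP2-7 (LOC_Os09g36930) had 574, 955 and 778 CPM in severe drought, against 130, 297 and 160 CPM after 30 min heat. PIP2-7 had a log2 fold change of 1.97 ± 0.49 (adjusted p = 0.0059). Without severe drought replicate 2 and 30 min heat replicate 1 its value was 1.62 (adjusted p = 0.062). PIP1-1 (LOC_Os02g44630) had 926, 1070 and 1060 CPM in severe drought, against 535, 638 and 609 CPM after 30 min heat. PIP1-1 had a log2 fold change of 0.78 ± 0.16 (adjusted p = 0.0018). PIP1-2 fell (-1.80, adjusted p = 2.6e-05). A pair of genes was above the wet control in both groups and was picked out after their values were seen. PIP2-2 had 548, 616 and 652 CPM in severe drought, 547, 692 and 630 CPM after 30 min heat and 250, 373 and 294 CPM in the wet control and a direct difference of -0.04 ± 0.18 (adjusted p = 0.87), with overlapping libraries. TIP1-2 had 1030, 848 and 1110 CPM in severe drought, 1210, 1800 and 1730 CPM after 30 min heat and 244, 298 and 227 CPM in the wet control; against the wet control it gave 1.96 (adjusted p = 0.00089) in severe drought and 2.62 (adjusted p = 5.3e-07) after heat. Its direct difference of -0.67 (adjusted p = 0.017) was lost without severe drought replicate 2 or 30 min heat replicate 2 or 3, and that of TIP2-2 (-0.83, adjusted p = 0.048) without any 1 of the 6 libraries.

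In the iron genes it was severe drought, not heat, that stood apart from the wet control. Of 11 tested, 7 fell and 2 rose, where 20.6% of all genes fell and 19.9% rose. The median was -4.58, and the numbers that fell and rose were the same whichever of the 6 libraries was left out. The 11 genes held 0.0052% to 0.00891% of counts in severe drought, 0.0607% to 0.167% after heat and 0.15% to 0.21% in the wet control. NAS1 (LOC_Os03g19427), a nicotianamine synthase gene, had 0, 0 and 0 CPM in severe drought, 7.9, 7.55 and 19.4 CPM after 30 min heat and 4.31, 27.6 and 68.8 CPM in the wet control. With 0 counts it was at least 689-fold lower in severe drought than after heat and at least 2010-fold lower than in the wet control. The neighbouring NAS2 (LOC_Os03g19420) had 0, 0.0577 and 0 CPM in severe drought, 4.9, 3.67 and 12.4 CPM after 30 min heat and 2.64, 19.9 and 72.7 CPM in the wet control. NAS2 had a log2 fold change of -8.22 ± 1.43 (adjusted p = 0.00093) that was -7.50 without 30 min heat replicate 3. Without severe drought replicate 2, which leaves 0 counts in severe drought, NAS2 was at least 256-fold lower. NAS1 and NAS2 are close copies, and reads shared between them cannot be assigned here. Only severe drought stood apart in both genes, while the heat and wet libraries overlapped. NAAT1, which makes the next intermediate of phytosiderophores, had 1.95, 1.46 and 0.842 CPM in severe drought, 14.5, 38.9 and 48.4 CPM after 30 min heat and 35, 82.1 and 88.8 CPM in the wet control. NAAT1 had a log2 fold change of -4.58 ± 0.56 (adjusted p = 2.9e-05).

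The transporters followed the synthesis genes. NRAMP1 (LOC_Os07g15460), a metal importer, had 17.7, 2.19 and 1.99 CPM in severe drought, 639, 1580 and 1950 CPM after 30 min heat and 879, 1420 and 985 CPM in the wet control. Severe drought replicate 1 was the highest of its group and still far below every heat library; the log2 fold change was -7.57 ± 1.06 (adjusted p = 9.3e-05), and -9.37 without severe drought replicate 1. YSL2, a carrier of iron bound to nicotianamine, had 0.992, 1.64 and 1.25 CPM in severe drought, 6.12, 41.4 and 87.9 CPM after 30 min heat and 22.8, 84.1 and 78.6 CPM in the wet control. YSL2 had a log2 fold change of -5.12 ± 0.97 (adjusted p = 0.001) that was -4.17 without 30 min heat replicate 3. IRT2, an iron importer, had 1 count in severe drought and 473 after heat, a ratio, heat over severe drought, of 613 with an exact 95% counting interval of 109 to 24200. The count lay in severe drought replicate 1, and without it the gene was at least 144-fold lower. IRO3, a repressor of the iron deficiency response, had 31.1, 9.89 and 12.5 CPM in severe drought, 179, 444 and 502 CPM after 30 min heat and 178, 329 and 311 CPM in the wet control. IRO3 had a log2 fold change of -4.39 ± 0.60 (adjusted p = 7.1e-05) that was -5.07 without severe drought replicate 1. IRT1 did not separate the groups, with 0.753, 1.02 and 1.53 CPM in severe drought, against 1.32, 1.3 and 0.465 CPM after 30 min heat and a difference of 0.10 (95% interval -1.01 to 1.21).

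NAS3 (LOC_Os07g48980) went the opposite way to NAS1 and NAS2. It had 18.9, 13.2 and 31 CPM in severe drought, 1.92, 1.59 and 0.209 CPM after 30 min heat and 1.91, 1.63 and 0.579 CPM in the wet control. Every severe drought library was above all others, and the heat and wet libraries overlapped. Its log2 fold change was 4.08 ± 0.71 (adjusted p = 0.00056) against heat and 3.93 ± 0.70 (adjusted p = 0.011) against the wet control. VIT1 (LOC_Os04g38940), which loads iron into vacuoles, had 14.5, 15.7 and 21 CPM in severe drought, 4.6, 6.81 and 7.84 CPM after 30 min heat and 10.3, 13.3 and 15.8 CPM in the wet control. VIT1 had a log2 fold change of 1.41 ± 0.31 (adjusted p = 0.0024). Here it was heat that was below the wet control (-1.03, adjusted p = 0.017), and severe drought did not differ from it past the threshold (0.38, adjusted p = 0.51). Against the wet control, 7 of the 11 iron genes fell in severe drought, where 1.05% of all genes were called lower. After heat 1 fell against the wet control, where 19.6% of all genes were called lower.

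**Figure D4:**
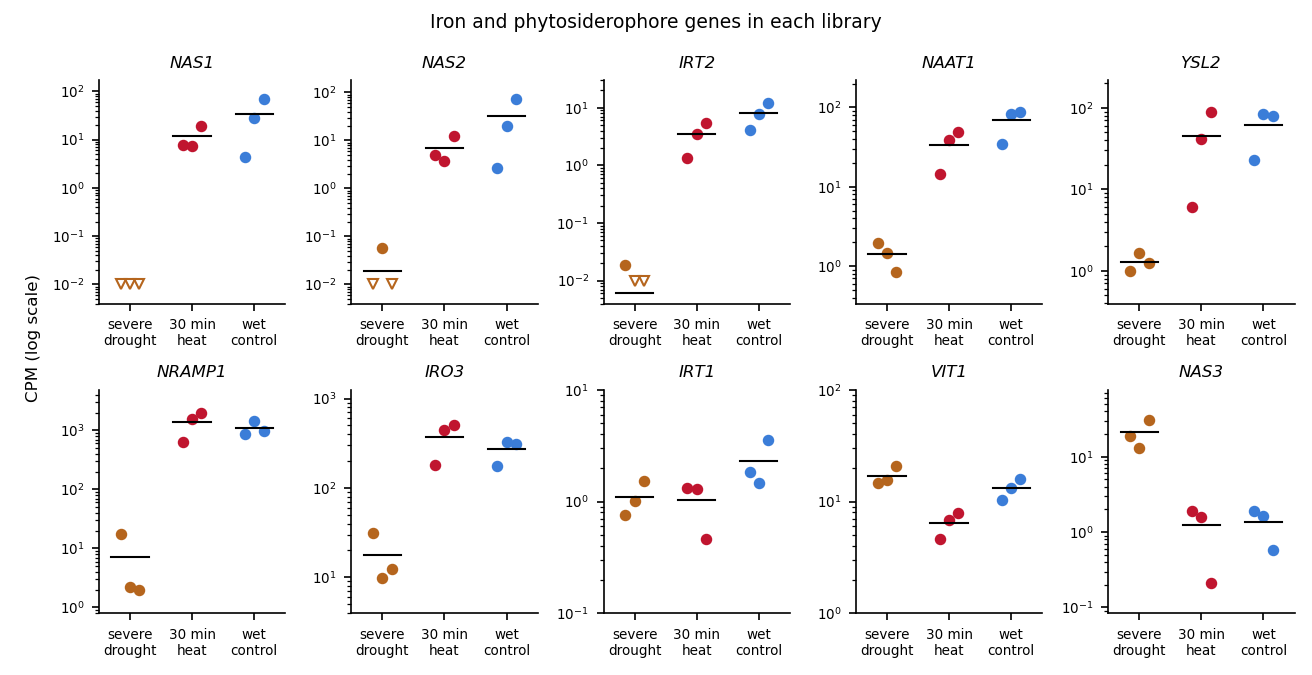
Level of 10 iron and phytosiderophore genes in each library (points, CPM on a log scale that differs between panels) for severe drought, 30 min heat and the wet control, with the group mean as a bar; open triangles at 0.01 CPM are libraries with 0 counts. In the first 7 panels severe drought alone is low, IRT1 overlaps across groups, VIT1 is lowest after heat and NAS3 is highest in severe drought.

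Expansins, which loosen cell walls as cells grow, gave 4 rises and 0 falls among 11 tested genes, where 19.9% of all genes rose and 20.6% fell. The median was 2.45 against 0.02 for all genes. EXPA2 (LOC_Os01g60770) had 6.57, 60 and 15.3 CPM in severe drought, 1.42, 0.66 and 0.558 CPM after 30 min heat and 16.8, 14.7 and 52.2 CPM in the wet control. EXPA4 (LOC_Os05g39990) had 7.53, 34.2 and 15 CPM in severe drought, 1, 1.63 and 2.19 CPM after 30 min heat and 10.6, 20.2 and 25.3 CPM in the wet control. EXPB2 (LOC_Os10g40710) had 3.69, 14.6 and 9.51 CPM in severe drought, 0.96, 1.77 and 0.814 CPM after 30 min heat and 11.2, 15.5 and 4.62 CPM in the wet control. In each gene severe drought replicate 2 was the highest of its group, no severe drought library reached down to the heat libraries, and the wet libraries lay around those of severe drought. The log2 fold changes were 4.95 ± 0.99 (adjusted p = 0.0015), 3.56 ± 0.66 (adjusted p = 0.00082) and 2.97 ± 0.66 (adjusted p = 0.0029); those of EXPA2 and EXPA4 were 3.66 without severe drought replicate 2 and 2.84 without severe drought replicate 2. EXPA1 (4.18, adjusted p = 0.0098) lost its call without severe drought replicate 2, where it was 2.67, and was 5.81 without 30 min heat replicate 1. Against the wet control, 0 of 11 passed in severe drought, where 2.69% of all genes passed, and 7 were lower after heat, where 19.6% of all genes were called lower. The summed level of the list ran from 44.9 to 264 CPM in severe drought and from 33.3 to 38.6 CPM after heat.

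Of 11 tested genes of cell division 2 were higher and 2 lower (3 and 1 with library totals), where 40.5% of all genes passed. MCM7 (LOC_Os12g37400), a subunit of the replicative helicase, had 0.184, 0.0865 and 0.135 CPM in severe drought, 22.8, 16.3 and 18.3 CPM after 30 min heat and 0.398, 0.65 and 0.552 CPM in the wet control. MCM7 had a log2 fold change of -7.15 ± 0.88 (adjusted p = 2.9e-05). Its heat libraries stood alone. Of the other subunits of the same complex, MCM2 rose (1.09, adjusted p = 0.0059). MCM3 to MCM6 were between -2.23 and -1.46, in the direction of MCM7, with none past the threshold. The mitotic kinase gene CDKB1-1 had 6.87, 5.68 and 5.47 CPM in severe drought, against 2.62, 4.81 and 2.49 CPM after 30 min heat. CDKB1-1 had a log2 fold change of 0.86 (adjusted p = 0.013) that was 0.74 without 30 min heat replicate 1 (adjusted p = 0.052) and 0.72 without 30 min heat replicate 3 (adjusted p = 0.056). The cyclin gene CYCB1-1 (-1.69, adjusted p = 0.045) kept its call only without severe drought replicate 2, where it was -2.83.

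In nitrogen assimilation 2 of 8 tested genes rose and 0 fell, where 40.5% of all genes passed. The median was -0.04 (0.68 with library totals). NIA1 (LOC_Os08g36480), for nitrate reductase, had 283, 144 and 115 CPM in severe drought, 2.4, 3.69 and 6.61 CPM after 30 min heat and 115, 169 and 46.4 CPM in the wet control. NIA1 had a log2 fold change of 5.42 ± 0.69 (adjusted p = 4.2e-05). The cytosolic glutamine synthetase gene GLN1-1 (LOC_Os02g50240) had 274, 346 and 386 CPM in severe drought, 130, 117 and 122 CPM after 30 min heat and 343, 325 and 423 CPM in the wet control. GLN1-1 had a log2 fold change of 1.45 ± 0.21 (adjusted p = 0.00011). For both the heat libraries were below all others, and severe drought overlapped with the wet control. The chloroplast glutamine synthetase gene GLN2 differed by -0.42 (adjusted p = 0.21). In the phosphate list, SPX1 (LOC_Os06g40120), a phosphate sensor gene, had 8.23, 11.6 and 10.4 CPM in severe drought, 37.8, 54.5 and 52.8 CPM after 30 min heat and 7.12, 9.38 and 7.42 CPM in the wet control. SPX1 had a log2 fold change of -2.26 ± 0.23 (adjusted p = 5.2e-06). PHR2 (LOC_Os07g25710), the central factor of the phosphate starvation response, had 49.2, 42.7 and 41.9 CPM in severe drought, against 56.6, 62.6 and 58.3 CPM after 30 min heat. PHR2 had a log2 fold change of -0.41 (adjusted p = 0.0093) that was -0.34 without severe drought replicate 2 (adjusted p = 0.061) and -0.34 without 30 min heat replicate 2 (adjusted p = 0.062) and turned to 0.32 with library totals. Of the 8 tested in this list, 1 rose and 2 fell, where 40.5% of all genes passed. The 1 that rose, a phosphate transporter gene, had 35 counts in severe drought and 2 after heat. It lost its call without severe drought replicate 3 or 30 min heat replicate 1 or 2. The median of the phosphate list was -0.40. With library totals 3 were higher and 1 lower, with a median of 0.33.

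The clock list gave 3 rises and 2 falls among 8 tested genes, and a median of -0.17, where 19.9% of all genes rose and 20.6% fell. With library totals 5 were higher and 1 lower, with a median of 0.56. PCL1 (LOC_Os01g74020), the rice counterpart of LUX in the evening complex, had 0.147, 0.0865 and 0.0337 CPM in severe drought, 20, 22.2 and 27.8 CPM after 30 min heat and 1.23, 0.346 and 0.404 CPM in the wet control. PCL1 had a log2 fold change of -8.02 ± 0.68 (adjusted p = 9.1e-07). Severe drought was below the wet control (-2.89, adjusted p = 0.028) and heat above it (5.14, adjusted p = 1.2e-05). ELF3, another member of that complex, had 91.3, 53.6 and 47.9 CPM in severe drought, against 107, 117 and 134 CPM after 30 min heat. ELF3 had a log2 fold change of -0.89 (adjusted p = 0.043) that was -0.74 without severe drought replicate 2 (adjusted p = 0.15), -0.72 without severe drought replicate 3 (adjusted p = 0.15), -0.93 without 30 min heat replicate 1 (adjusted p = 0.07), -0.87 without 30 min heat replicate 2 (adjusted p = 0.094) and -0.77 without 30 min heat replicate 3 (adjusted p = 0.14). Of the pseudo-response regulators, PRR37 (LOC_Os07g49460) had 188, 159 and 175 CPM in severe drought, against 69.2, 93.1 and 91.9 CPM after 30 min heat. PRR37 had a log2 fold change of 1.04 ± 0.18 (adjusted p = 0.00039). PRR1 (LOC_Os02g40510) had 6.85, 6.92 and 6.38 CPM in severe drought, against 2.96, 4.5 and 3.79 CPM after 30 min heat. PRR1 had a log2 fold change of 0.84 ± 0.19 (adjusted p = 0.0037). PRR73 had 843, 705 and 743 CPM in severe drought, against 410, 573 and 572 CPM after 30 min heat. PRR73 had a log2 fold change of 0.56 (adjusted p = 0.027) that was 0.48 without severe drought replicate 1 (adjusted p = 0.086), 0.58 without severe drought replicate 3 (adjusted p = 0.053) and 0.44 without 30 min heat replicate 1 (adjusted p = 0.097). The morning gene LHY and the evening gene GI did not pass (-0.25, adjusted p = 0.4 and -0.09, adjusted p = 0.81). All libraries were harvested at the same hour.

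**Figure D5:**
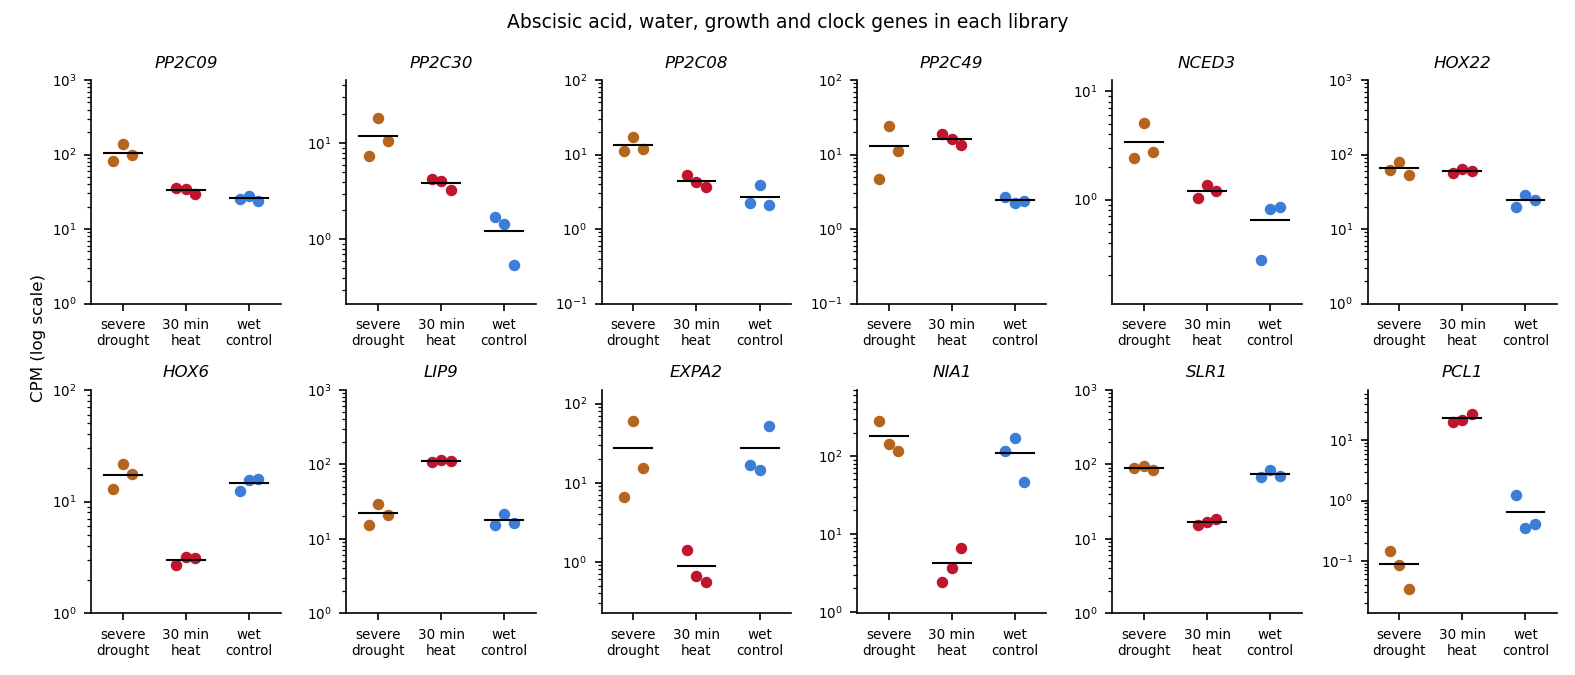
Level of 12 genes of ABA signalling, water, growth, nitrogen and the clock in each library (points, CPM on a log scale that differs between panels) for severe drought, 30 min heat and the wet control, with the group mean as a bar. PP2C09, PP2C30, PP2C08 and NCED3 are highest in severe drought, PP2C49 and HOX22 are above the wet control in both treated groups, HOX6, EXPA2, NIA1 and SLR1 are low only after heat, and LIP9 and PCL1 are high only after heat.

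Of 15 tested jasmonate and defence genes 2 were higher and 3 lower, with a median of -0.75, where 40.5% of all genes passed. With library totals 4 were higher and 2 lower, with a median of 0.01. JAR1 (LOC_Os05g50890), which couples jasmonate to isoleucine, had 82.8, 98.1 and 71.3 CPM in severe drought, 32.1, 35.3 and 36.2 CPM after 30 min heat and 84.1, 92.3 and 60.5 CPM in the wet control. JAR1 had a log2 fold change of 1.28 ± 0.16 (adjusted p = 3.1e-05). AOC (LOC_Os03g32314), for allene oxide cyclase, had 56.9, 95 and 82.1 CPM in severe drought, 32.7, 32.5 and 32 CPM after 30 min heat and 70.7, 82.9 and 86.1 CPM in the wet control. AOC had a log2 fold change of 1.27 ± 0.28 (adjusted p = 0.0032). In both, severe drought was level with the wet control and heat lay below it. TIFY10A (LOC_Os03g28940), a JAZ repressor, had 28.9, 36.6 and 31 CPM in severe drought, against 54.6, 52.3 and 69.8 CPM after 30 min heat. TIFY10A had a log2 fold change of -0.87 ± 0.21 (adjusted p = 0.0043). LOX8 had 0.734, 1.01 and 1.41 CPM in severe drought, 7.88, 6.6 and 19.9 CPM after 30 min heat and 31.4, 10.9 and 1.84 CPM in the wet control, and its log2 fold change of -3.44 (adjusted p = 0.014) was -3.24 without severe drought replicate 1 (adjusted p = 0.051) and -2.75 without 30 min heat replicate 3 (adjusted p = 0.053). TIFY11A fell by 3.35 (adjusted p = 0.0032), and was -2.42 without 30 min heat replicate 3.

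Of 11 tested antioxidant genes 4 fell and 0 rose, with a median of -0.38, where 40.5% of all genes passed. With library totals 2 were lower and 3 higher, with a median of 0.35. APX3 (LOC_Os04g14680), an ascorbate peroxidase gene, had 2.22, 5.29 and 5.71 CPM in severe drought, 249, 306 and 216 CPM after 30 min heat and 3.32, 3.14 and 12.2 CPM in the wet control. APX3 had a log2 fold change of -5.86 ± 0.81 (adjusted p = 7.9e-05). APX2 (LOC_Os07g49400), for a cytosolic ascorbate peroxidase, had 525, 469 and 465 CPM in severe drought, 1840, 1990 and 2060 CPM after 30 min heat and 414, 393 and 394 CPM in the wet control. APX2 had a log2 fold change of -2.02 ± 0.14 (adjusted p = 8.5e-08). SODCC1 (LOC_Os03g22810), for a copper-zinc superoxide dismutase, had 163, 149 and 184 CPM in severe drought, 325, 374 and 368 CPM after 30 min heat and 154, 126 and 149 CPM in the wet control. SODCC1 had a log2 fold change of -1.11 ± 0.14 (adjusted p = 2.9e-05). In all 3 the severe drought libraries were near the wet ones and the heat libraries above them. APX1, chosen after its values were seen, had 163, 157 and 188 CPM in severe drought, 202, 126 and 139 CPM after 30 min heat and 74.8, 31.6 and 14.7 CPM in the wet control; it was above the wet control in both groups (2.07, adjusted p = 0.029 and 1.94, adjusted p = 0.0039), and its direct difference was 0.12 (95% interval -0.80 to 1.05).

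Among hormone genes, SLR1 (LOC_Os03g49990), the single DELLA repressor of gibberellin signalling in rice, had 89.2, 95.8 and 84.4 CPM in severe drought, 15.3, 17 and 18.4 CPM after 30 min heat and 67.7, 84.2 and 70.5 CPM in the wet control. The heat libraries were well below those of both other groups, and the log2 fold change was 2.41 ± 0.13 (adjusted p = 9.8e-09). The gibberellin receptor gene GID1 and the F-box gene GID2 were slightly lower in severe drought (-0.39, adjusted p = 0.024 and -0.42, adjusted p = 0.027). These 2 calls were weak: GID1 lost its call without any 1 of the 6 libraries, GID2 was -0.39 without severe drought replicate 1 (adjusted p = 0.079), -0.36 without severe drought replicate 2 (adjusted p = 0.1), -0.36 without 30 min heat replicate 1 (adjusted p = 0.097) and -0.38 without 30 min heat replicate 2 (adjusted p = 0.095), and with library totals they turned to 0.34 and 0.30. The cytokinin oxidase gene CKX2 (LOC_Os01g10110), which breaks cytokinin down, had 1.08, 0.346 and 0.909 CPM in severe drought, 7.42, 6.66 and 8.49 CPM after 30 min heat and 10.4, 12.3 and 5.71 CPM in the wet control. CKX2 had a log2 fold change of -3.28 ± 0.43 (adjusted p = 5.4e-05); severe drought was also below the wet control (-3.61, adjusted p = 0.0018). Of the type A response regulators, RR9 (LOC_Os11g04720) had 15.7, 17 and 22 CPM in severe drought, against 58.5, 77 and 57.7 CPM after 30 min heat. RR9 had a log2 fold change of -1.82 ± 0.22 (adjusted p = 2.5e-05). RR1 (-1.55, adjusted p = 0.046) was lost without any 1 of the 6 libraries, with values between -1.79 and -1.21, and RR2 (0.57, adjusted p = 0.034) was 0.42 without severe drought replicate 3 (adjusted p = 0.14), 0.46 without 30 min heat replicate 1 (adjusted p = 0.11) and 0.62 without 30 min heat replicate 3 (adjusted p = 0.062). The ethylene receptor gene ERS1 (LOC_Os03g49500) had 28.4, 31.2 and 30.9 CPM in severe drought, against 53.5, 56 and 59.2 CPM after 30 min heat. ERS1 had a log2 fold change of -0.90 ± 0.10 (adjusted p = 8.4e-06). In all, 1 gibberellin gene rose and 2 fell of 6 tested, 0 ethylene genes rose and 2 fell of 5, and 1 cytokinin gene rose and 4 fell of 7. Over all genes, 19.9% rose and 20.6% fell. With library totals the counts were 5 higher and 0 lower for gibberellin, 1 higher and 0 lower for ethylene, and 2 higher and 2 lower for cytokinin. The call of the ethylene signalling gene EIN2 (-1.41, adjusted p = 0.0071) was lost without severe drought replicate 2 and 30 min heat replicate 1 (-1.29, adjusted p = 0.058).

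None of the 5 tested photosynthesis genes passed, where 40.5% of all genes did, and their median was 0.15, against 0.02 for all genes. RBCS (LOC_Os12g17600), for the small subunit of Rubisco and the most abundant transcript in severe drought, had 19800, 20400 and 24900 CPM in severe drought, 11500, 19400 and 20100 CPM after 30 min heat and 10800, 23500 and 11800 CPM in the wet control. The groups overlapped, and the difference of 0.35 ± 0.30 (adjusted p = 0.38) had a 95% interval of -0.30 to 1.00. CAB1R differed by -0.01 (95% interval -0.36 to 0.35) and CAB2R by 0.10 (95% interval -0.41 to 0.61). None of the 3 tested sugar and starch genes passed either; the one with the smallest p, the amylase gene RAMY3D, was below 1 CPM in every library and differed by -1.69 (adjusted p = 0.19). With library totals all 5 photosynthesis genes were higher, with a median of 0.88 where the median of all genes was 0.75. Related small-subunit and light-harvesting genes share sequence, and the authors' counting could have split their reads.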

How the data were processed

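RNA was measured by stranded mRNA sequencing of whole shoots. Trimmomatic, HISAT2 and featureCounts are named in the submitters' processing notes. Neither build nor strand setting is given in the sources used here, so reads of antisense and near-identical genes may be mixed. The deposited file holds raw read counts per gene for 24073 loci, whose IDs carry the suffix of MSU version 7.0, in 15 libraries, as deposited by the authors; 1205 loci had no count.

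Counts were fitted in R 4.3.3 with edgeR 4.0.16 (TMM scaling, filterByExpr with a minimum count of 10, robust glmQLFit, glmQLFTest) over all 15 libraries of 5 groups, which share 1 estimate of the spread, and adjusted by Benjamini-Hochberg over the 20462 genes tested at a threshold of 0.05. Levels are TMM-scaled counts per 1000000 counts (CPM). Depth limits low genes: intervals, floors and bounds from 0 to 3 counts cover counting error only. Where a library was left out, the other 2 of its group were taken to vary like the other groups.

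Of 328 loci in 25 lists, 317 were in the table. A symbol was used where the RefSeq table (assembly ASM3414082v1) had it on the same chromosome within 1000 kb of the expected place, which held for 239 loci in the table; 5 aliases were added after that table was seen. The text names, per list, up to 3 members in each direction with the largest change among called members that reach 5 CPM in a group and do not overlap, and where there are none, that of the smallest p; by the same limits, the 8 largest changes in each direction; and the most abundant gene of each group. Apart from the tissue markers, others stand for counts and ranges or were chosen after their values were seen. That also holds where the text does not say so, as for SAPK5, LIP9, P5CS1, NAAT1, YSL2, IRO3 and IRT1. Members and lists were chosen with earlier results of these data known. Alternatives were RLE or no scaling, no filter, DESeq2 1.42.0, the 2 groups alone, a replicate block, a test against a 2-fold change, and leaving out libraries. Promoter and protein sequences and coordinates were not used here.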

Additional observations from a re-analysis of the deposited data

How the results depend on the processing

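The count of 8281 genes past the threshold was 8315 with RLE size factors, 8124 without the filter, 9135 with DESeq2 (1681 genes had no adjusted p there), 7871 with the 2 groups alone, and between 6882 and 7619 when 1 of the 6 libraries was left out. Without severe drought replicate 2 and 30 min heat replicate 1 together, an alternative chosen after seeing the data, it was 6405. Against a 2-fold change 2627 genes passed, 1107 higher and 1520 lower, with 73 instead of 130 list members and 48 instead of 80 named genes. Library totals without a scaling factor moved the median of all genes by 0.73 and gave 10115 genes higher and 1806 lower; 65 of the 80 named genes kept their direction and call, 12 lost the call, and PHR2, GID2 and GID1 turned to 0.32, 0.30 and 0.34. LSI1, with a difference of -0.08 that passed no threshold, turned to 0.65 with library totals, 0.16 without severe drought replicate 2 (-0.32 without severe drought replicate 3), 0.03 and 0.02 without 30 min heat replicates 2 and 3, and 0.06 without severe drought replicate 2 and 30 min heat replicate 1. Of the 80 named genes, 68 passed whichever library was left out. In DESeq2, 76 kept their call and the others had no adjusted p; with the 2 groups alone 76 kept it. Libraries with the same replicate number did not deviate together (r = -0.43, -0.2 and -0.01 for numbers 1, 2 and 3). Deviations from a mean of 3 libraries constrain each other, so these values cannot decide whether the numbers mark pairs. With a replicate block 3962 genes were higher and 4182 lower, and all 80 named genes kept their call. Depth limits genes near 0.0433 to 0.0698 CPM, the levels of 3 counts in 1 library of these groups, where a few reads decide the value.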

Other observations

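Libraries of mild drought (1.5 g water per g soil) and of 60 min heat, with 3 each, were used above only for the estimate of spread, and the values of the leading genes in them are given here without a test. The heat genes held few or no reads in mild drought, and at 60 min some had fallen far below their 30 min level and others had not. LOC_Os07g47840 had 0, 0 and 0.0292 CPM in mild drought and 41.3, 32.3 and 25.8 CPM after 60 min heat, where 30 min heat had 1910, 2130 and 1610 CPM. LOC_Os04g01740 had 0.364, 0.0798 and 0.584 CPM in mild drought and 6410, 6270 and 6210 CPM after 60 min heat, where 30 min heat had 19700, 20200 and 21100 CPM. HSFA2A had 0, 0.0798 and 0.438 CPM in mild drought and 118, 136 and 167 CPM after 60 min heat. HSP26.7 had 0.0809, 0.0532 and 0.379 CPM in mild drought and 9630, 8900 and 8270 CPM after 60 min heat. MCM7, whose 30 min heat libraries stood alone, had 0, 0.0266 and 0.379 CPM in mild drought and 0.588, 1.1 and 0.772 CPM after 60 min heat. PCL1 had 1.21, 0.372 and 0.511 CPM in mild drought and 7.23, 7.77 and 8 CPM after 60 min heat.

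Among the iron genes, NAS1 was at or near 0 in mild drought too, with 0, 0 and 0.0292 CPM in mild drought and 8.01, 7.2 and 12.2 CPM after 60 min heat. NRAMP1 had 257, 35.8 and 180 CPM in mild drought and 1830, 1320 and 1760 CPM after 60 min heat, so its mild drought libraries lay between those of severe drought and the wet control. NAS3 had 10.3, 17.6 and 14.3 CPM in mild drought and 0.183, 0.653 and 0.348 CPM after 60 min heat, its mild drought libraries all above those of the wet control. Of the genes that were low after 30 min heat, NIA1 had 323, 182 and 67.3 CPM in mild drought and 30.6, 25.2 and 25.7 CPM after 60 min heat, and SLR1 had 87.5, 74.5 and 86.7 CPM in mild drought and 65.7, 59 and 59.8 CPM after 60 min heat. EXPA2 had 9.63, 13.6 and 15.9 CPM in mild drought and 26.5, 3.02 and 10.3 CPM after 60 min heat. LOC_Os09g29460 had 28.2, 28.8 and 24.5 CPM in mild drought and 21.5, 25.1 and 14.4 CPM after 60 min heat. In these 4 genes the 60 min heat libraries were above the 30 min ones. PP2C30 had 6.64, 7.43 and 6.9 CPM in mild drought and 5.07, 5.64 and 4.78 CPM after 60 min heat, between the wet control and severe drought by its means in mild drought. EMP1, with 0 counts in severe drought, had 0, 0 and 0 CPM in mild drought and 13.5, 1.54 and 12.6 CPM after 60 min heat.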
